A study of Rattus norvegicus with 16 samples.

Results

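The genes that remove superoxide and peroxides, make and use glutathione, and carry out thioredoxin reduction were examined in the left ventricle (LV) of rats with volume overload (VO). They were chosen by symbol: the superoxide dismutases Sod1 to Sod3 and catalase (Cat), the glutathione peroxidases (Gpx), peroxiredoxins (Prdx), thioredoxins (Txn) and thioredoxin reductases (Txnrd), the cytosolic, mitochondrial and microsomal glutathione transferases (Gst, Mgst), Gclc, Gclm, Gss and Gsr of glutathione synthesis and recycling, and Nqo1 and Hmox1. The rule gave 50 of the 14218 genes measured, and all 50 were kept and tested. VO was produced by an aortocaval fistula (ACF), an opening between the abdominal aorta and the inferior vena cava that sends arterial blood straight back to the heart. Adult male Sprague-Dawley rats were studied as 4 groups of 4: control rats without a fistula, titled baseline in the labels, and rats 8, 16 and 24 weeks after the ACF. The labels name no altered gene and no drug in any group, and each rat contributed 1 array of whole LV RNA. The methods give an age of 8 to 10 weeks at the fistula operation, and the age of the controls when their hearts were taken is not stated in the labels, so the controls are not shown to be of the age of the rats at 24 weeks. The sample descriptions of the 24-week group read 24, 25, 26 and 27 weeks. The methods take 8 weeks of VO as compensated hypertrophy and 16 weeks as heart failure.

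Superoxide dismutases turn superoxide, which leaks from the respiratory chain and is made by NADPH oxidases, into hydrogen peroxide. Catalase, glutathione peroxidases and peroxiredoxins then remove the peroxide. The peroxidases and peroxiredoxins, but not catalase, draw on glutathione or thioredoxin that is reduced again with NADPH. Glutathione transferases attach glutathione to reactive products such as the aldehydes of oxidized lipids. Many of these genes carry an antioxidant response element, a short DNA motif bound by the transcription factor Nrf2 with a small Maf protein.

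Levels below are log2 intensities minus the median of the array, so a difference of 1 is a doubling of intensity, and a negative level is below the median probe set of its array. A gene is said to have risen or fallen where the adjusted p of limma's moderated test was under 0.05, with Benjamini-Hochberg adjustment across the 14218 genes. Before centring, the arrays lay at 2 levels. The medians of 9 arrays, those of all 4 control rats, 3 rats at 8 weeks and rats 1 and 2 at 16 weeks, were between 6.13 and 6.17. The medians of the other 7, rat 2 at 8 weeks, rats 3 and 4 at 16 weeks and all rats at 24 weeks, were between 5.92 and 5.96. Centring removes this shift from the median gene, but control and 24 weeks share no level, so at 24 weeks the array level and the time after ACF cannot be told apart. Without centring, the median of all genes was lower than control by 0.06, 0.12 and 0.21 (log2) at 8, 16 and 24 weeks. In whole tissue, fewer cells of a type and less RNA per cell cannot be told apart.

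At 16 weeks, 4 of the 50 genes rose and 4 fell. Those that rose were Gclc, the catalytic subunit of the rate-limiting enzyme of glutathione synthesis, Gpx3, the secreted plasma glutathione peroxidase, Gpx7, a peroxidase of the endoplasmic reticulum, and Hmox1, the inducible heme oxygenase. Those that fell were all transferases, namely Gsta4, which conjugates the lipid aldehyde 4-hydroxynonenal, the mu-class Gstm7 and Gstm2, and the microsomal Mgst3. The risers are 8% of the set, against 5.83% of all genes that rose, and the fallers are 8%, against 3.26% of all genes that fell. At an unadjusted p under 0.05 there were 15 of the 50 (30%), against 24.3% of all genes. The median difference of the set was -0.05 (log2), and that of all genes was 0.00. All 8 genes had 4 arrays at 16 weeks outside the range of the 4 control arrays, where in all 7 genes of the set lay above and 6 below, 14% and 12% of it, against 10.1% and 6.32% of all genes.

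At 8 weeks none of the 50 passed, and 0.0492% of all genes rose and 0.00703% fell. At an unadjusted p under 0.05 there were 6 of the 50 (12%), against 7.82% of all genes. With 4 rats a group this does not show that the genes were unchanged. None of the 50 lay above and 7 (14%) lay below all control arrays, against 3.43% and 2.73% of all genes. At 24 weeks none passed, while 0.612% of all genes rose and 0.295% fell. At an unadjusted p under 0.05 there were 10 of the 50 (20%), against 16.2% of all genes. There 4 (8%) lay above and 4 (8%) below all control arrays, against 4.82% and 4.46% of all genes. The 3 comparisons use the same control rats. Gsta4, Gclc, Gpx3 and Gstm7 passed at 16 weeks in each of 16 fits that left out 1 array, and the other 4 did not pass in all of them.

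**Figure D1:**
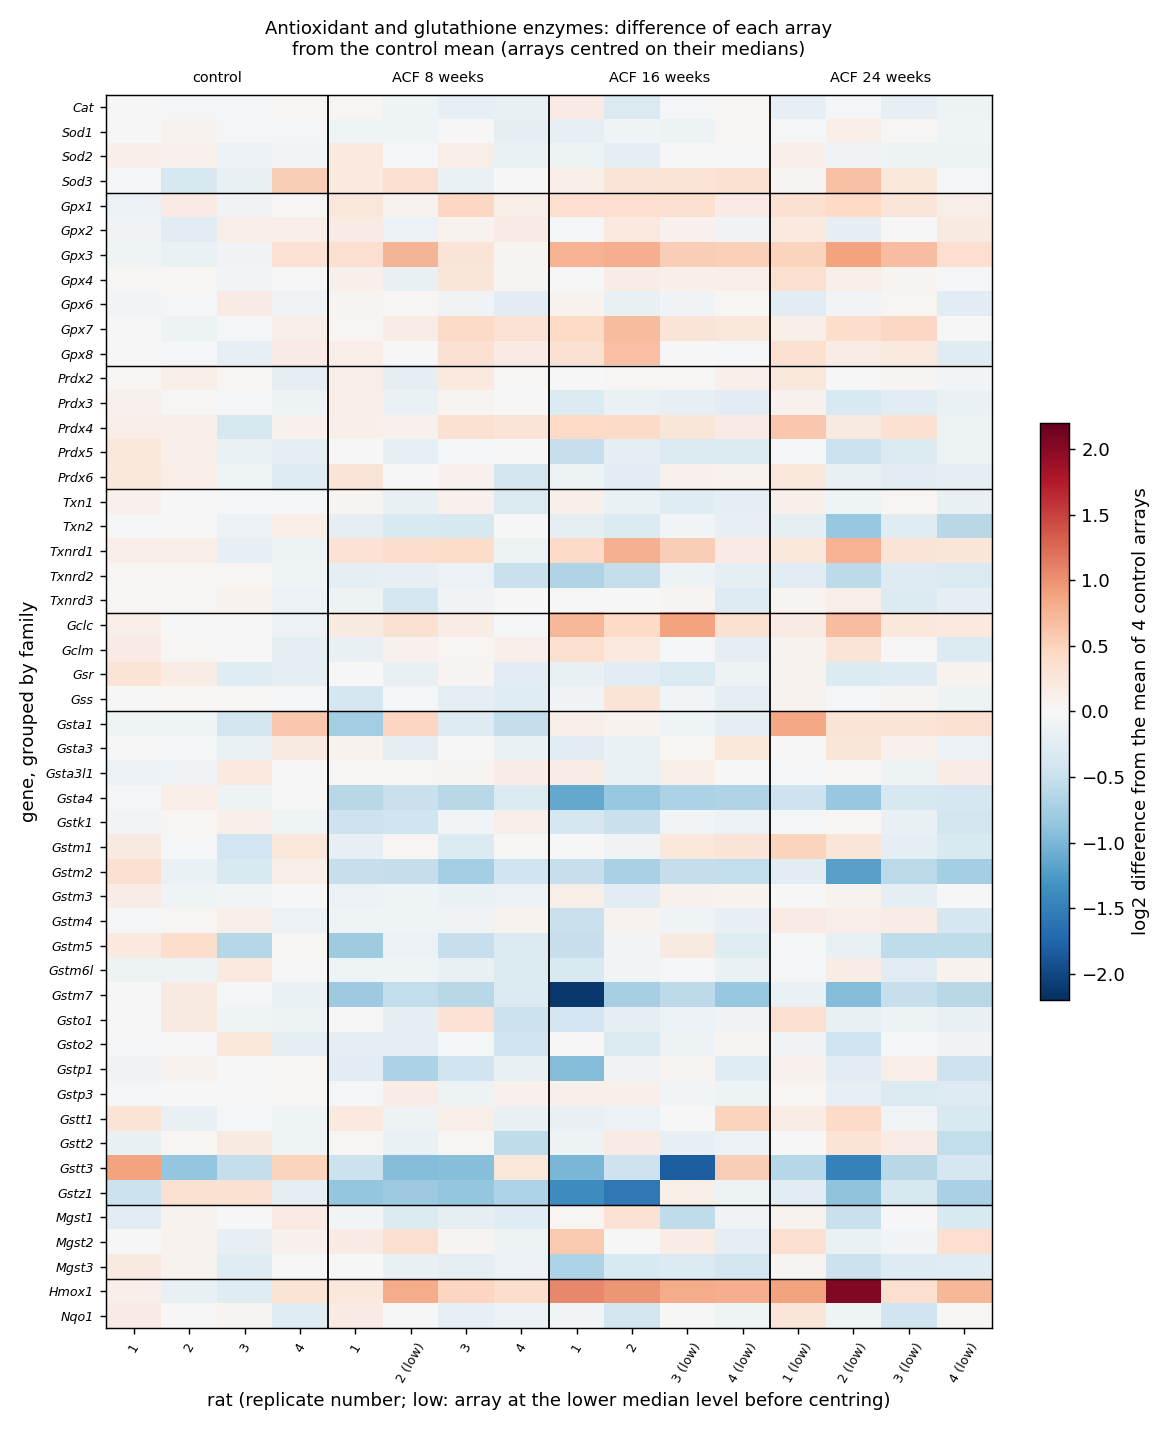
Difference of each of 16 arrays from the mean of the 4 control arrays (log2, colour scale from -2.2 to 2.2) for all 50 genes in rows, grouped by family, with rats in columns. Gpx3 and Hmox1 are red and Gsta4, Gstm2 and Gstm7 blue in nearly every ACF rat, and most rows of the dismutases, peroxiredoxins and synthesis genes stay pale.

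The sequence around the transcription start of these genes was read for the core letters of the antioxidant response element, TGACNNNGC, on both strands. RefSeq windows of 300 bases (250 before to 50 after the start, rat assembly GRCr8) matched 41 of the 50 genes. The letters were found in 11 of the 41 windows (26.8%), against 12.2% of 27457 windows of the same length over all genes. TGAGTCA, the letters of an AP-1 site, which can overlap the first, were in 3 of the 41, against 4.53% of all windows. The 41 windows had a median GC content of 58%, against 52.3% over all windows, and the differences in share were not tested. Of the 8 genes that rose or fell, Gsta4, Gclc, Gpx3, Gstm7, Gstm2, Mgst3 and Gpx7 have a window, and Gstm7 alone of them holds the core, starting 14 bases before the start. A match is a description of letters and not of a bound site. Sequence outside the windows was not read, so a window without the letters does not show that the gene has no element. The windows shown are those of the 4 genes with the smallest adjusted p at 16 weeks, then Gclm, the partner subunit of Gclc, and Gstp1, which hold the core but did not pass the test. Capitals mark TGACNNNGC or its reverse complement.
Gsta4, chr8:87947015-87947314, plus strand: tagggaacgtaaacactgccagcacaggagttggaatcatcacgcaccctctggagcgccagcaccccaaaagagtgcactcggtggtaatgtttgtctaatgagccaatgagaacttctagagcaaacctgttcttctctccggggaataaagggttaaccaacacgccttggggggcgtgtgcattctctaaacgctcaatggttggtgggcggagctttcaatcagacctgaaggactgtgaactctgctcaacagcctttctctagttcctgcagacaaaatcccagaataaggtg
Gclc, chr8:87510226-87510525, plus strand: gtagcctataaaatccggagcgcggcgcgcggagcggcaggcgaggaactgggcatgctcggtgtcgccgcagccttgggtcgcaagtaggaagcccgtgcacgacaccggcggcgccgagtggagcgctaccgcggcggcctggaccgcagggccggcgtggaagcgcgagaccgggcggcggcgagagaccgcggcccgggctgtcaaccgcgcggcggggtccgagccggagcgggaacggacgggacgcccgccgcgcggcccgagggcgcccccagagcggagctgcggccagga
Gpx3, chr10:39529085-39529384, plus strand: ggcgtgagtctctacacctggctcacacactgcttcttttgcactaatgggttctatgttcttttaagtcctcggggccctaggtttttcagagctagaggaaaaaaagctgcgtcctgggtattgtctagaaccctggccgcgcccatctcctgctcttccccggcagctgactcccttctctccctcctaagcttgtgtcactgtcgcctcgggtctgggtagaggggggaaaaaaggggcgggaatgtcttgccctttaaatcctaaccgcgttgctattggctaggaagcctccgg
Gstm7, chr2:198260270-198260569, minus strand: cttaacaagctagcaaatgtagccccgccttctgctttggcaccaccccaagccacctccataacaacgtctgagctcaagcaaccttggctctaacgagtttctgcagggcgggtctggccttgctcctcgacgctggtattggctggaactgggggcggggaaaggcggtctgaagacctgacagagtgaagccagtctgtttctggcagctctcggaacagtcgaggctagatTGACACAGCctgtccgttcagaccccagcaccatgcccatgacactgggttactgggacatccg
Gclm, chr2:213031885-213032184, plus strand: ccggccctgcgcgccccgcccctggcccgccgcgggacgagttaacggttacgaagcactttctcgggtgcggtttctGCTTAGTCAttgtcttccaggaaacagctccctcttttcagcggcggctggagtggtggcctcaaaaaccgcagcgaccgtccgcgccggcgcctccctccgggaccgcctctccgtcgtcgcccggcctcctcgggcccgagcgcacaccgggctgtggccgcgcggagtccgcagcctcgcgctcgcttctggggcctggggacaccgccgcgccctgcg
Gstp1, chr1:210769656-210769955, minus strand: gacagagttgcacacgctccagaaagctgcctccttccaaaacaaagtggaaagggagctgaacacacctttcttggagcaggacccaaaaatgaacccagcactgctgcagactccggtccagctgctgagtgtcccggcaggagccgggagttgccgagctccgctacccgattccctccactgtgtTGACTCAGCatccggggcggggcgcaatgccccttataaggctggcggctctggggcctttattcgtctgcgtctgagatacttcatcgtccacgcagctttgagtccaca
In Gstp1 the core, 61 bases before the start, overlaps the letters of the AP-1 site, and in Gclm it lies 172 bases before the start on the opposite strand. The other windows that hold it are those of Sod2, Gpx2, Prdx4, Prdx5, Gsta1, Gsta3, Gstm5 and Gstz1.

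The dismutases and catalase, the first line against superoxide and peroxide, gave no call at any time. Cytosolic Sod1 differed from control by -0.10, -0.09 and 0.01 (log2) at 8, 16 and 24 weeks, with a 95% interval of -0.26 to 0.08 at 16 weeks. The mitochondrial manganese enzyme Sod2 differed by 0.04, -0.08 and -0.05, with an interval of -0.29 to 0.12 at 16 weeks. Cat, the peroxisomal catalase, differed by -0.10, -0.04 and -0.12, and its interval at 16 weeks was -0.25 to 0.17. These intervals bound the change that 4 rats a group could have missed. At 24 weeks the 4 arrays of Cat, 6.286 to 6.44, lay just below the lowest control at 6.444, and the gene did not pass. Sod3, the extracellular enzyme, was above 0 at each time, at 0.11, 0.27 and 0.23, but its interval at 16 weeks, -0.10 to 0.63, was wide, and control rat 4 at 4.04 was higher than the other controls at 3.15 to 3.48.

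Among the glutathione peroxidases, selenium or thiol enzymes that reduce peroxides, 2 of 7 rose at 16 weeks (28.6%, against 5.83% of all genes). At each time 6 of 7 differences were above 0. Gpx3 was at 5.47, 5.41, 5.48 and 5.88 in the 4 control rats, at 5.92, 6.30, 5.84 and 5.63 at 8 weeks, at 6.32, 6.36, 6.10 and 6.08 at 16 weeks and at 6.05, 6.45, 6.23 and 5.93 at 24 weeks. All rats at 16 and 24 weeks were above all controls, and the 8-week group overlapped them through its rats 3 and 4. The difference was 0.36 (SE 0.15, adjusted p = 0.533), 0.65 (SE 0.15, 1.57-fold, adjusted p = 0.0114) and 0.61 (SE 0.15, adjusted p = 0.059) at the 3 times (limma). The exact two-sided permutation p of 4 against 4 arrays was 0.0286 at 16 weeks, the smallest that this design can give, and the same p held for each of the 8 genes at 16 weeks.

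Gpx7 was at 1.65, 1.54, 1.61 and 1.77 in controls, at 1.69, 1.80, 2.06 and 1.95 at 8 weeks, at 2.08, 2.34, 1.92 and 1.89 at 16 weeks and at 1.76, 2.02, 2.10 and 1.62 at 24 weeks. All 4 rats at 16 weeks were above the controls, the 8- and 24-week groups each overlapped them, and rat 2 at 16 weeks was the highest of all. At 16 weeks the difference was 0.42 (SE 0.12, 1.33-fold, adjusted p = 0.0452), and it was 0.30 (adjusted p = 0.215) when the arrays were not centred. Of the 16 fits that each left out 1 array, 8 gave an adjusted p under 0.05. Its relative Gpx8, also of the endoplasmic reticulum and named after its values were seen, differed by 0.24 (adjusted p = 0.371) at 16 weeks. There rats 1 and 2 were at 2.65 and 2.97, rats 3 and 4 were at 2.31 and 2.28, and the controls were between 2.14 and 2.50.

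Gpx1, the abundant cytosolic and mitochondrial peroxidase, was at 7.28 to 7.59 in controls and at 7.78, 7.78, 7.76 and 7.60 at 16 weeks. All 4 were above the highest control, rat 4 at 7.60 against 7.59, and the difference of 0.32 (SE 0.10) did not pass (adjusted p = 0.0606). Gpx4, which reduces lipid peroxides within membranes, differed by 0.10 at 16 weeks with an interval of -0.12 to 0.31. Gpx2 and Gpx6, enzymes known from gut and olfactory tissue, were below the array median in every rat.

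**Figure D2:**
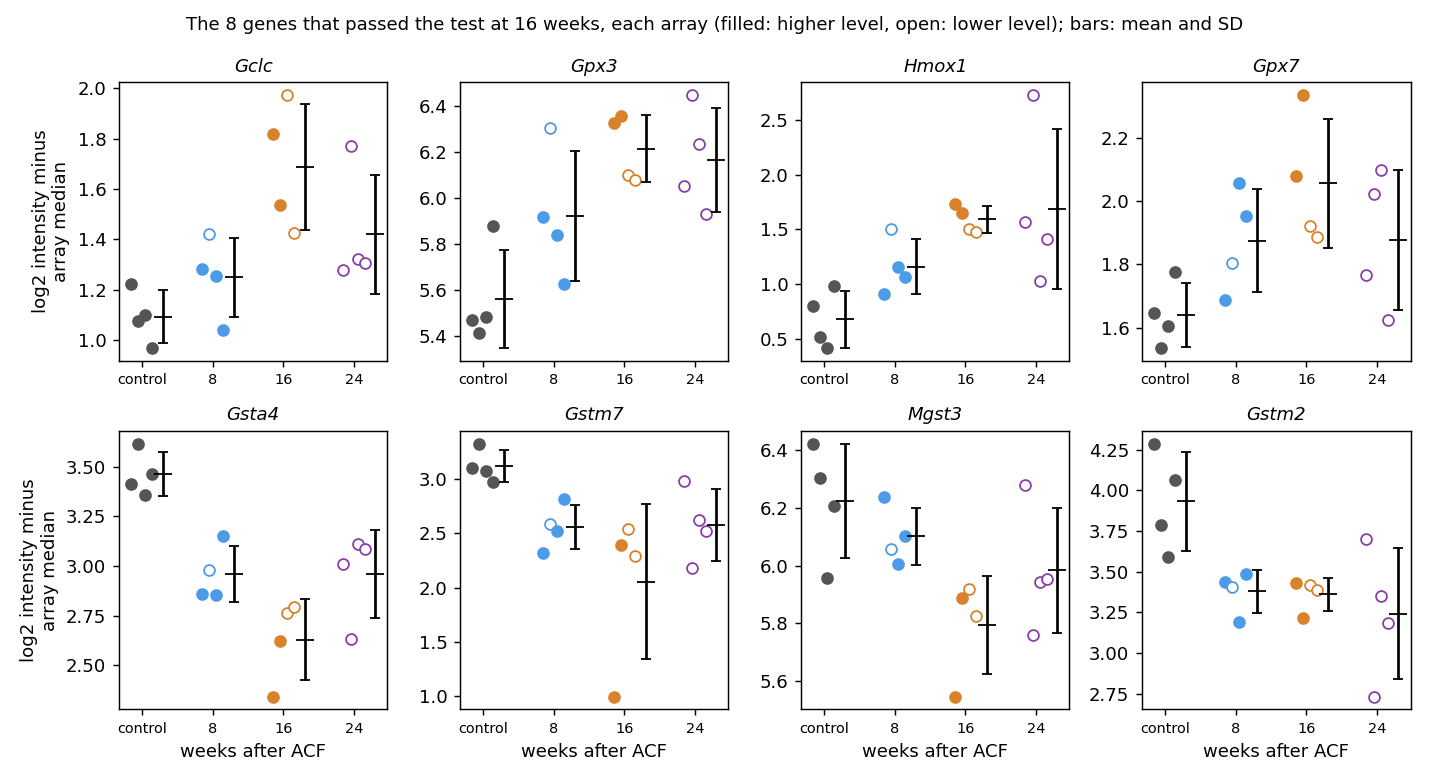
Level of the 8 genes that passed at 16 weeks (log2 intensity minus the array median, y axis, range set for each gene) in each rat by group, with mean and SD (n = 4) as bars. Filled points are arrays at the higher median level and open points arrays at the lower one. In all 8 panels the 16-week rats lie on one side of all control rats, and Gstm7 in rat 1 at 16 weeks stands alone at 0.99.

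The peroxiredoxins, thiol peroxidases served mostly by thioredoxin, gave no call. Prdx3, the mitochondrial form, was at 6.17, 6.10, 6.05 and 5.96 in controls and at 5.76, 5.93, 5.89 and 5.82 at 16 weeks, so that the groups did not overlap, with a difference of -0.22 that did not pass (adjusted p = 0.18). Prdx5, found in mitochondria and peroxisomes, differed by -0.05, -0.33 and -0.23, with an adjusted p of 0.0862 at 16 weeks and one 16-week rat inside the control range. The cytosolic Prdx2 differed by 0.04 at 16 weeks, with an interval of -0.18 to 0.26. Prdx4, the form of the endoplasmic reticulum, did not pass either: its 4 arrays at 16 weeks, 2.54 to 2.80, lay above the controls, 2.01 to 2.50, and the difference was 0.33 (adjusted p = 0.155).

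In the thioredoxin system, which passes electrons from NADPH to peroxiredoxins and ribonucleotide reductase, the cytosolic and mitochondrial reductases lay on opposite sides of control. Txnrd1, the cytosolic reductase, was at 2.90, 2.90, 2.57 and 2.64 in controls, at 3.07, 3.14, 3.16 and 2.64 at 8 weeks, at 3.16, 3.54, 3.28 and 2.93 at 16 weeks and at 2.98, 3.52, 3.03 and 3.01 at 24 weeks. All rats at 16 and 24 weeks were above the controls, and rat 4 at 8 weeks was within their range. The difference at 16 weeks was 0.48 (SE 0.15, adjusted p = 0.0607), and a second probe set of the gene gave 0.56 (adjusted p = 0.135), so neither passed.

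Txnrd2, the mitochondrial reductase, named after its values were seen, was at 2.68, 2.67, 2.69 and 2.55 in controls, at 2.44, 2.47, 2.52 and 2.16 at 8 weeks, at 1.98, 2.12, 2.54 and 2.43 at 16 weeks and at 2.41, 2.07, 2.36 and 2.33 at 24 weeks. It was the one gene of the set whose rats lay below all controls at all 3 times besides Gsta4. The difference was -0.25, -0.38 and -0.35, with adjusted p = 0.656, 0.0618 and 0.158, and none passed. Once the model blocked on the array level, Txnrd2 at 16 weeks passed, with a difference of -0.52 (adjusted p = 0.0113). Txn2, the mitochondrial thioredoxin, was at 3.58, 3.63, 3.49 and 3.77 in controls and at 3.42, 2.79, 3.36 and 3.02 at 24 weeks. All 4 rats were below the controls, and the difference of -0.47 had an adjusted p of 0.0805. Txn1, the cytosolic thioredoxin, differed by -0.13 at 16 weeks and -0.02 at 24 weeks, with intervals of -0.35 to 0.10 and -0.25 to 0.20.

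Of the 4 genes of glutathione synthesis and recycling 1 rose at 16 weeks (25%, against 5.83% of all genes). Gclc was at 1.22, 1.08, 1.10 and 0.97 in controls, at 1.28, 1.42, 1.25 and 1.04 at 8 weeks, at 1.82, 1.53, 1.97 and 1.43 at 16 weeks and at 1.28, 1.77, 1.32 and 1.31 at 24 weeks. The rats at 16 weeks were above all rats of the control and 8-week groups, and at 24 weeks rat 2 stood above the other 3, which lay close together just over the controls. The 16-week difference was 0.59 (SE 0.13, 1.51-fold, adjusted p = 0.0112), and it was 0.16 at 8 weeks and 0.33 at 24 weeks (adjusted p = 0.872 and 0.231). A second, dimmer probe set of Gclc differed by 0.42 at 16 weeks and did not pass (adjusted p = 0.277), and with the mean of both sets in place of the brighter one the difference was 0.51 (adjusted p = 0.0588).

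Gclm, the modifier subunit that lowers the feedback inhibition of Gclc by glutathione, differed by 0.08 with an interval of -0.21 to 0.37, so that the 2 subunits of one enzyme had intervals at 16 weeks that overlapped only narrowly. The difference between them was not tested. Gss, which completes glutathione, differed by -0.01 (-0.23 to 0.21), and Gsr, which reduces its oxidized form, by -0.21 (-0.49 to 0.08).

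Of 20 glutathione transferases, 3 fell (15%, against 3.26% of all genes) and none rose at 16 weeks (5.83% of all genes rose). There 15 differences were below 0, with a median of -0.15. At 8 weeks 17 of 20 were below 0 with a median of -0.19, against -0.003 for all genes, and none passed. All 4 rats lay below the controls in 6 (30%, against 2.73% of all genes): Gsta4, Gstm2, Gstm3, Gstm7, Gstp1 and Gstz1. Of these Gstm3 was dim, with a mean of -0.70 in controls and -0.83 at 8 weeks. Like Gsta3, Gsta3l1, Gstm6l and Gstp3, it was below the array median in every rat. Several of these genes lie in clusters and resemble one another in sequence, so that probe sets of one may take up signal of another.

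Gsta4 was at 3.42, 3.62, 3.36 and 3.46 in the 4 control rats, at 2.86, 2.98, 2.85 and 3.15 at 8 weeks, at 2.34, 2.62, 2.76 and 2.79 at 16 weeks and at 3.01, 2.63, 3.11 and 3.08 at 24 weeks. Every ACF rat was below every control rat, and the 16-week rats were also below every 8-week rat. It had the smallest adjusted p of the set, 0.00108 at 16 weeks, with a difference of -0.83 (SE 0.12), which is 0.56 times the control intensity. At 8 and 24 weeks the differences were -0.50 and -0.50, with adjusted p = 0.152 and 0.0596. The step from 8 to 16 weeks was -0.33 and that from 16 to 24 weeks 0.33, and neither passed (adjusted p = 0.449 and 0.482).

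Gstm7 was at 3.11, 3.33, 3.08 and 2.98 in controls, at 2.32, 2.59, 2.52 and 2.82 at 8 weeks, at 0.99, 2.39, 2.54 and 2.29 at 16 weeks and at 2.98, 2.18, 2.62 and 2.52 at 24 weeks. All rats at 8 and 16 weeks were below the controls, and rat 1 at 16 weeks was far below its own group. The 16-week difference was -1.07 (SE 0.25, 0.48 times control, adjusted p = 0.0152). Without rat 1 it was -0.72 and still passed (adjusted p = 0.017). The same rat had the lowest level of its group in Gsta4 (2.34), Mgst3 (5.54) and Gstp1 (3.59), each of them, like Gstm7, also the lowest of all 16 arrays, and the highest Hmox1 of its group (1.73). Its array also had the lowest level of the cardiomyocyte gene Myh6, 6.71 against 7.45 to 8.17 in the other 15. The other cardiomyocyte markers were mixed in this array. Tnni3 (7.73) and Ttn (6.70) were also the lowest of all 16, Pln (7.94) was the highest, and Tnnt2, Myl2 and Ryr2 lay within the other arrays.

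Gstm2 was at 4.29, 3.79, 3.59 and 4.06 in controls, at 3.43, 3.40, 3.19 and 3.49 at 8 weeks, at 3.43, 3.21, 3.42 and 3.39 at 16 weeks and at 3.70, 2.73, 3.35 and 3.19 at 24 weeks. The control rats ranged from 3.59 to 4.29, and the rats at 8 and 16 weeks were all below them, while rat 1 at 24 weeks was within their range. The difference was -0.55, -0.57 and -0.69, and passed at 16 weeks only (adjusted p = 0.32, 0.0451 and 0.0606). Blocking on the array level gave -0.60 at 16 weeks (adjusted p = 0.0623), short of the threshold, and the gene passed in 4 of the 16 fits without 1 array. Gstm1, the neighbouring mu-class gene, differed by 0.11 at 16 weeks with an interval of -0.26 to 0.48.

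Gstz1, which also acts in tyrosine breakdown and was named after its values were seen, was at 2.24, 3.06, 3.06 and 2.53 in controls, at 1.87, 1.93, 1.87 and 2.04 at 8 weeks, at 1.34, 1.15, 2.86 and 2.61 at 16 weeks and at 2.47, 1.85, 2.37 and 2.02 at 24 weeks. At 16 weeks the 2 rats with arrays at the higher level were at 1.34 and 1.15 and the 2 at the lower level were within the control range. The difference was -0.73 (SE 0.31, adjusted p = 0.149), but -1.16 (adjusted p = 0.0144) with the level as a block and -1.48 (adjusted p = 0.00178) over the arrays at the higher level alone.

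Of the other transferases, Gstp1, the pi-class enzyme, differed by -0.39, -0.31 and -0.12 at the 3 times and Gstk1, the mitochondrial kappa enzyme, by -0.21, -0.26 and -0.14. Gsta3, an alpha-class enzyme, was below the array median in every rat and differed by -0.03 at 16 weeks. The remaining genes of the family lay between -0.68 (Gstt3, whose controls ranged from -0.17 to 1.58) and 0.05 (Gstt1) at 16 weeks, and none passed.

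Of the 3 microsomal transferases 1 fell at 16 weeks (33.3%, against 3.26% of all genes). Mgst3, a membrane enzyme with glutathione-dependent peroxidase activity, was at 6.42, 6.31, 5.96 and 6.21 in controls, at 6.24, 6.06, 6.01 and 6.10 at 8 weeks, at 5.54, 5.89, 5.92 and 5.82 at 16 weeks and at 6.28, 5.76, 5.94 and 5.95 at 24 weeks. All rats at 16 weeks were below the lowest control and below all rats at 8 weeks, and the other groups overlapped the controls. The 16-week difference was -0.43 (SE 0.12, 0.74 times control, adjusted p = 0.0376), and it was -0.12 and -0.24 at 8 and 24 weeks (adjusted p = 0.912 and 0.354). Of the 16 fits without 1 array, 11 passed at 16 weeks. Mgst1 differed by -0.07 at 16 weeks, with an interval of -0.41 to 0.28.

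**Figure D3:**
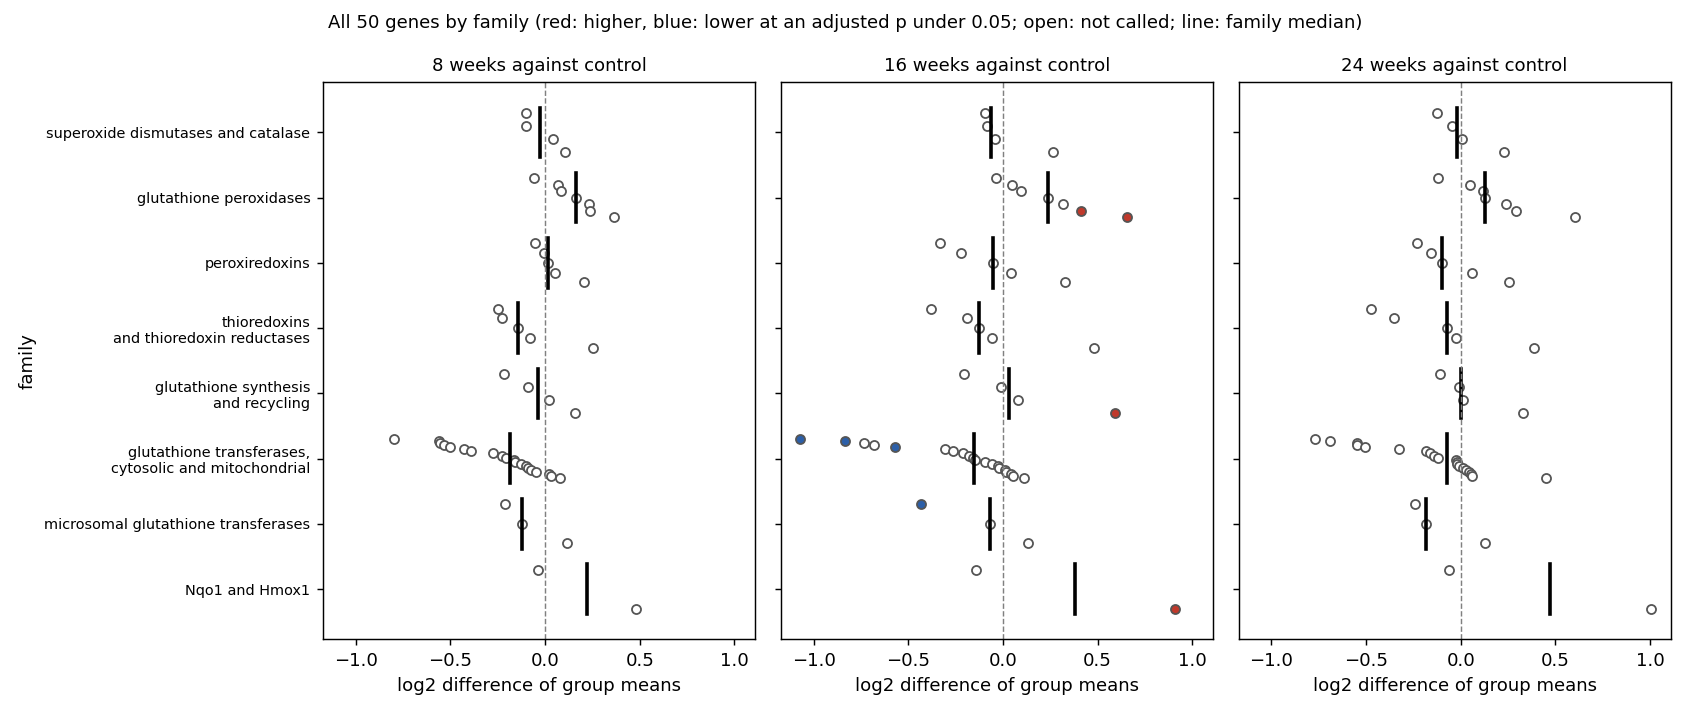
Log2 difference of group means from control (x axis) for all 50 genes by family at 8, 16 and 24 weeks, with red for genes that rose, blue for genes that fell, open circles for genes that did not pass and a line at each family's median. All coloured points are at 16 weeks, where the transferases reach -1.07 and the glutathione peroxidases lie mostly above 0.

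Of Hmox1 and Nqo1, both known as targets of Nrf2, Hmox1 rose at 16 weeks and Nqo1 did not pass. Hmox1, which breaks down heme to biliverdin, carbon monoxide and iron, was at 0.80, 0.52, 0.42 and 0.98 in controls, at 0.91, 1.50, 1.16 and 1.07 at 8 weeks, at 1.73, 1.65, 1.50 and 1.48 at 16 weeks and at 1.57, 2.72, 1.03 and 1.42 at 24 weeks. All rats at 16 and 24 weeks were above the controls, and at 24 weeks rat 2 was highest at 2.72 while rat 3 was close to the highest control. The 16-week difference was 0.91 (SE 0.25, 1.88-fold, adjusted p = 0.0326). A model that held the array level as a block gave 0.87 (adjusted p = 0.0686), short of the threshold, while the difference was 1.01 (adjusted p = 0.00238) among higher-level arrays. The gene passed in 10 of the 16 fits without 1 array. At 24 weeks it was larger, at 1.00, but more spread, and did not pass (adjusted p = 0.0636). Nqo1, the quinone reductase, differed by -0.04, -0.14 and -0.06, with an interval of -0.44 to 0.15 at 16 weeks. The difference between both genes was not tested.

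Markers of other cells moved at the same time. All 9 macrophage markers rose at 16 weeks, 2 rose at 8 weeks and 4 at 24 weeks. Of all genes 0.0492%, 5.83% and 0.612% rose at 8, 16 and 24 weeks. With the array level blocked, the marker counts were 9 at 16 weeks, 6 at 8 weeks and 0 at 24 weeks. At 24 weeks, where control shares no level with the group, 0.0141% of all genes passed under the block. Failing it there says little about a gene. The summed linear level of the macrophage markers, in multiples of the array median, was 43.9 to 59.7 in controls, 87.7 to 115 at 8 weeks, 108 to 192 at 16 weeks and 65.6 to 114 at 24 weeks. Macrophages are a known site of Hmox1, and the part of these cells in the rise of Hmox1 was not tested. Of 8 fibroblast markers 4 rose at 16 weeks (Postn, Dcn, Col1a2 and Col3a1), with a summed level of 203 to 266 in controls and 283 to 359 at 16 weeks, and their part in the rise of Gpx3 and Gpx7 was not tested. None of 7 cardiomyocyte markers passed at any time, with summed levels of 1532 to 1638 in controls and 1347 to 1654 at 16 weeks, and none of 4 erythroid, 4 smooth muscle, 2 neutrophil or 4 adipocyte markers passed. Of 5 endothelial markers Vwf rose, at 16 and 24 weeks, the latter not under the block (adjusted p = 0.113). All 4 adipocyte markers were below the array median in every group mean. The 7 cardiomyocyte markers, which define the labelled tissue, were above the array median in each group.

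No gene of the set passed between the ACF groups, where none of all genes did either: 0% at 16 against 8 weeks, 0% at 24 against 8 weeks and 0% at 24 against 16 weeks (limma). At an unadjusted p under 0.05 there were 5, 2 and 2 genes of the set (10%, 4% and 4%), against 8.69%, 5.46% and 9% of all genes. Those of 16 against 8 weeks were Gclc, Gsta4, Mgst3, Prdx3 and Prdx5. A call at 16 weeks and none at 8 or 24 weeks is therefore not shown to be a difference between the times.

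The array level bears on these calls, since rats 1 and 2 at 16 weeks shared the level of the controls and rats 3 and 4 did not. With the level as a block 9 of the 50 passed at 16 weeks, 6 of the 8 (Gclc, Gpx3, Gpx7, Gsta4, Gstm7 and Mgst3) with Gpx1, Txnrd2 and Gstz1. They are 18% of the set, against 11.2% of all genes called in that model. Over the arrays at the higher level alone, 2 rats against 4, 12 (24%) passed, among them all 8, against 13% of all genes. Without centring 8 passed, 2 higher and 6 lower (4% and 12%, against 2.52% and 7.08% of all genes) in place of 4 and 4, and 6 of them were among the 8. At 24 weeks 9 passed without centring, 1 higher and 8 lower (2% and 16%, against 0.57% and 11.2% of all genes), where the median of all genes was itself lower by 0.21, and none passed with centring or with the level as a block. With that block 0.0141% of all genes passed at 24 weeks, so the lack of calls there shows little.

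**Figure D4:**
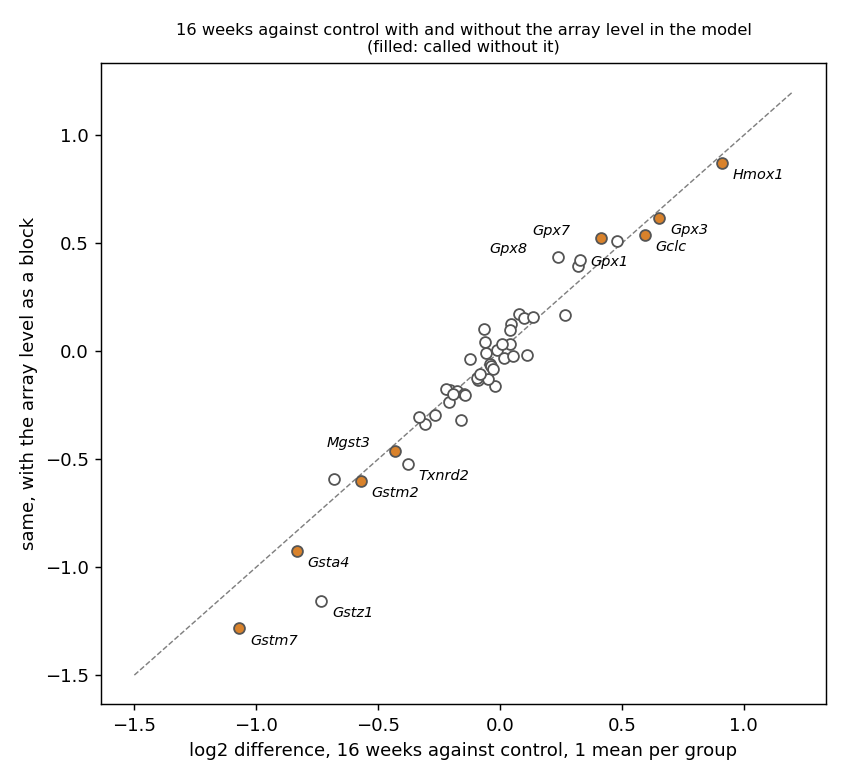
Log2 difference at 16 weeks from control for the 50 genes from the model with 1 mean per group (x axis) and from the model with the array level as a block (y axis), with the line of equality and filled points for the 8 genes that passed without the block. Gstz1 moves from -0.73 to -1.16, the filled point of Gstm7 from -1.07 to -1.28 and Txnrd2 from -0.38 to -0.52. The other filled points lie nearer the line than these.

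Genes that work beside the set were followed in 6 lists. Their counts at 16 weeks stand against 5.83% of all genes that rose and 3.26% that fell. Among 15 regulators of antioxidant genes, 2 rose at 16 weeks, both small Maf proteins that pair with Nrf2 or Bach1: Maff by 1.40 (adjusted p = 0.0045) and Mafk by 0.48 (adjusted p = 0.0331), of which Mafk did not pass with array level blocked (0.42, adjusted p = 0.0848). Maff also rose at 24 weeks, by 1.27 (adjusted p = 0.0358). It did not pass there under the block (0.88, adjusted p = 0.338), which left 0.0141% of all genes called at that time. Of 18 sources of superoxide and peroxide, 3 rose and 1 fell at 16 weeks. Cybb, the membrane subunit of the phagocyte NADPH oxidase, rose at all 3 times, by 1.01, 1.54 and 0.85, and Maoa, a monoamine oxidase of the outer mitochondrial membrane, rose by 1.10 at 16 weeks and 1.24 at 24 weeks. Under the block neither passed at 24 weeks, with Cybb at 1.13 (adjusted p = 0.081) and Maoa at 0.78 (adjusted p = 0.218). Ncf4, a cytosolic subunit of the same oxidase, rose by 0.58, whereas Ncf1, another, fell by 0.51 at 16 weeks. Macrophage markers rose as given above, as did Cybb and Ncf4 of this phagocyte oxidase, but Ncf1 of the same oxidase fell. The part of macrophages in these differences was not tested.

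The NADPH on which both reductases depend is made by several enzymes. Of 15 genes listed under NADPH supply 1 rose and 2 fell at 16 weeks, against 5.83% and 3.26% of all genes. All of these were malic enzymes, whose forms differ in coenzyme, so the rise of Me2 is not shown to be that of an NADPH source. The mitochondrial Me2 rose by 0.86 (adjusted p = 0.00108), while the cytosolic Me1 fell by 0.43 (adjusted p = 0.0358) and the mitochondrial Me3 fell by 0.41 (adjusted p = 0.0258). Of 26 genes of glutathione supply, use and repair, Slc3a2, the heavy chain of the cystine transporter, rose by 0.50 (adjusted p = 0.0452), although its 16-week rats overlapped the controls, and Dpep1, a dipeptidase of glutathione breakdown, fell by 0.58 (adjusted p = 0.0326). Neither passed under the block, with adjusted p = 0.062 for Slc3a2 and 0.0995 for Dpep1. Of 22 thioredoxin partners and repair enzymes Txndc12, a thioredoxin-like protein of the endoplasmic reticulum, rose by 0.63 and Selenop, the plasma selenium carrier, by 0.32 (adjusted p = 0.0309 and 0.0321).

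Of 22 genes of heme, iron and quinone handling 2 rose and 5 fell at 16 weeks, against 5.83% and 3.26% of all genes. The metallothionein Mt2A rose by 2.02 (adjusted p = 0.00418). Cbr1, a carbonyl reductase, fell by 1.02 (adjusted p = 0.00769), Nqo2, the second quinone reductase, fell by 0.65 (adjusted p = 0.00238), Blvrb, which reduces biliverdin, fell by 0.52 (adjusted p = 0.0112), and Akr7a2, an aldehyde reductase, fell by 0.48 (adjusted p = 0.0103). The medians of the 6 lists at 16 weeks lay between -0.08 and 0.16, with 0.00 for all genes.

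**Figure D5:**
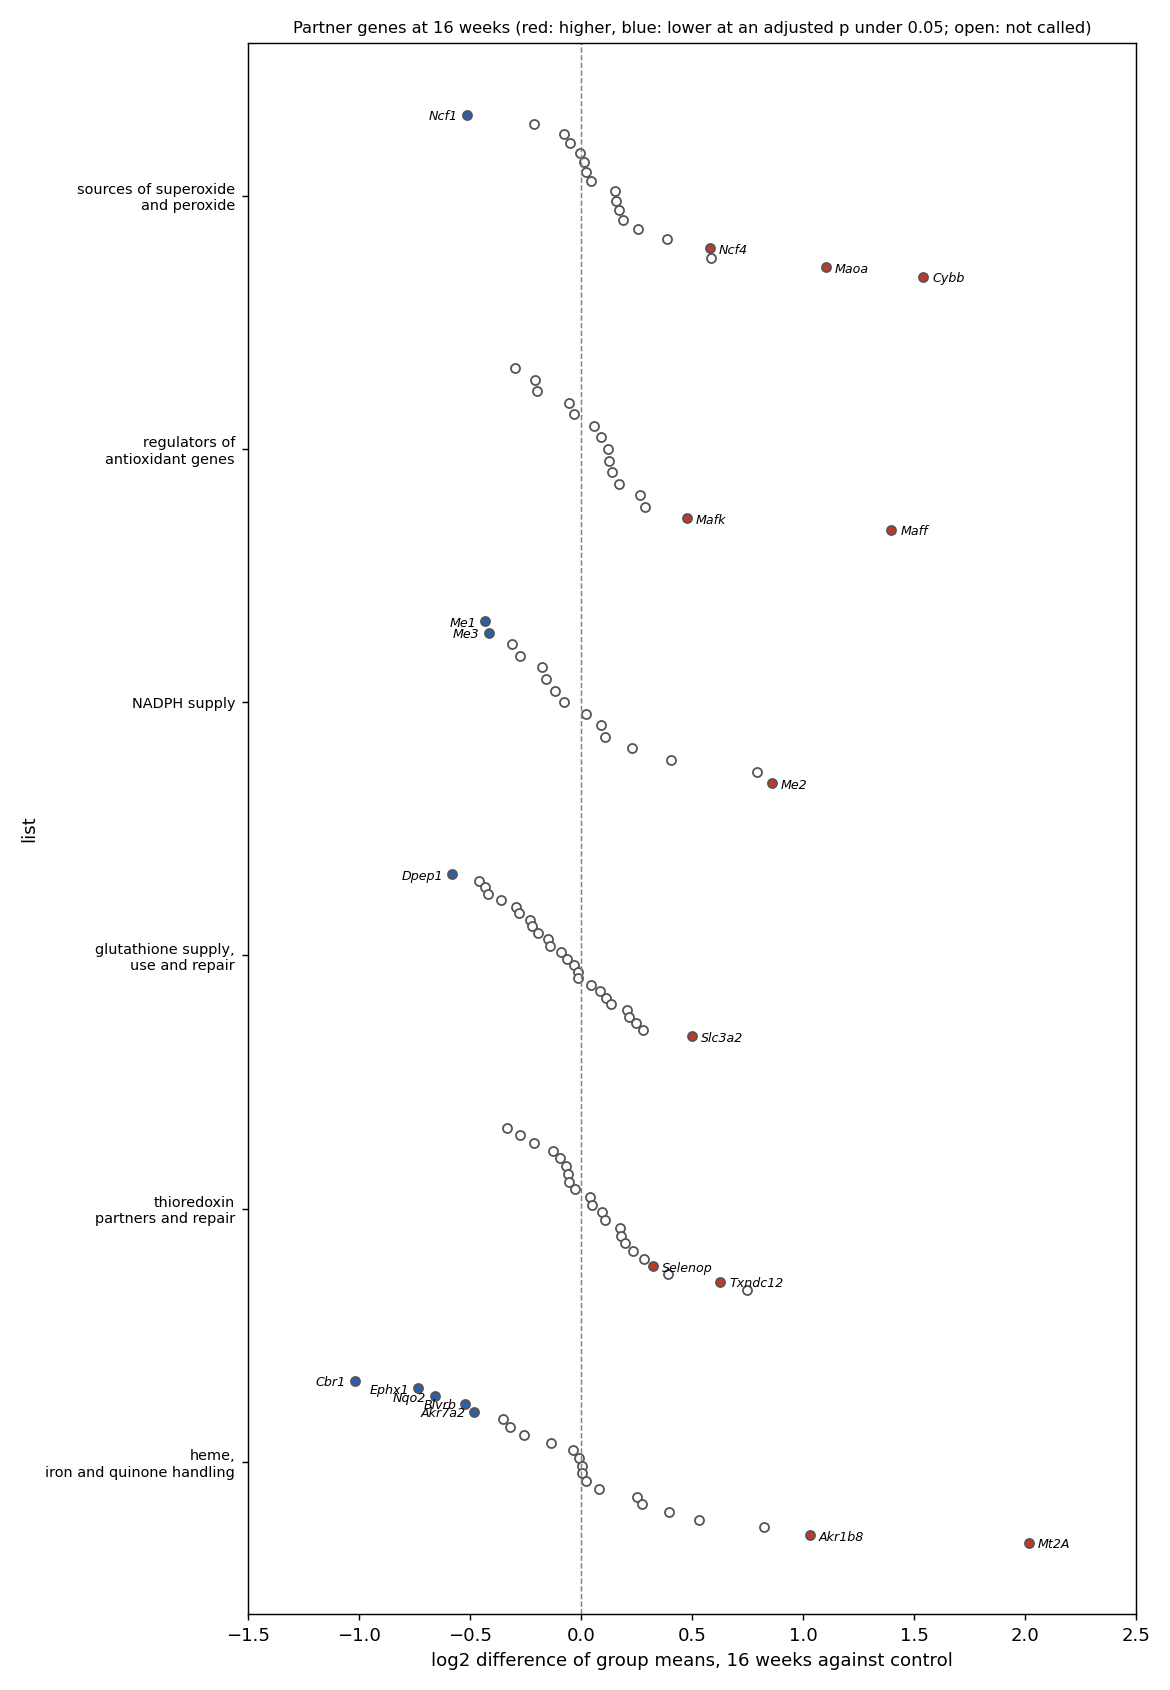
Log2 difference at 16 weeks from control (x axis) for the measured genes of the 6 lists beside the set, with red for genes that rose, blue for genes that fell and open circles for genes that did not pass. Mt2A, Cybb and Maff lie farthest to the right and Cbr1 farthest to the left, and each list spreads to both sides of 0.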

How the data were processed

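Total RNA of rat LV was hybridized to Affymetrix arrays, 1 per rat, 4 rats in each of 4 groups. For each probe set the authors deposited a log2 intensity, computed per the labels with RMA in Affymetrix Expression Console 1.2. The probe set names are those of another Affymetrix chip than the one the methods name, and the names in the deposited values were used. No raw intensities were processed, no dim probe sets were filtered out, and the number of arrays limits the precision. Controls are baseline rats in the labels and sham controls in the methods.

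Of 31099 probe sets, 20832 carry 1 gene symbol in the platform annotation and were used. The brightest probe set over 16 arrays stood for each of 14218 genes (54 probe sets for the 50 members). A further 2 probe sets of these families carry several symbols, were not assigned and did not pass. Arrays were centred on their medians. A model with 1 mean per group was fitted with limma 3.58.1 (R 4.3.3) to all arrays, and p values were adjusted over all genes at a threshold of 0.05. Intervals are 95% and SE is that of the model. Single genes had an exact two-sided permutation test. The methods were tested on simulated data. Promoter windows came from RefSeq (GRCr8), and figures were drawn with matplotlib 3.10.9 (Python 3.11.15).

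The members, the lists of other genes and the tests were chosen with earlier results of these data known. Values in every array were given for members that passed against control, and differences for a core set fixed by name. Of each other list up to 5 genes with the smallest adjusted p were named. Alternatives were arrays not centred, cyclic loess, the upper 50% of genes, only the 2 groups compared, a trended robust prior, a replicate block, the array level as a block, only the higher level, the methods' test, averaging the probe sets of a gene, and leaving out each array.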

Additional observations from a re-analysis of the deposited data

Results flagged for a closer look

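Of 116 groups of 4 arrays tested over 29 named genes, 6 held an array whose gap to its nearest neighbour exceeded Dixon's 95% critical share of the group's range, and chance flags about 1 in 20 groups. Rat 1 at 16 weeks had Gstm7 at 0.99, against 2.29 to 2.54 in the other 3. Rat 2 at 24 weeks, described as 25 weeks after ACF in its sample label, was flagged for 2 genes, with Gclc at 1.77 against 1.28 to 1.32 and Txnrd1 at 3.52 against 2.98 to 3.03. Control rat 4 had Gpx3 at 5.88, against 5.41 to 5.48 in the other controls, and without it Gpx3 passed at 24 weeks with a difference of 0.71 (adjusted p = 0.0383, limma). In all, Gpx3 passed at 24 weeks in 3 of the 16 fits without 1 array, with an adjusted p down to 0.0274 (limma). Rat 4 at 16 weeks had Gpx1 at 7.60, against 7.76 to 7.78, and without it Gpx1 passed at 16 weeks with a difference of 0.36 (adjusted p = 0.0446). Gpx1 passed at 16 weeks in 3 of the 16 fits without 1 array. Rat 4 at 8 weeks had Txnrd1 at 2.64, against 3.07 to 3.16. The causes were not tested.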

How the results depend on the processing

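The 8 genes that passed at 16 weeks kept their direction in all 10 other settings and in the 16 fits that left out 1 array. The methods' test, unpaired and adjusted in the same way, called 2 of the 50 (4%, Gsta4 and Hmox1) against 1.55% of all genes, and at their own threshold, an unadjusted p under 0.05 with a change over 1.5-fold, it called 5 (10%) at 16 weeks, 1 (2%) at 8 weeks and 3 (6%) at 24 weeks, against 5.37%, 1.33% and 2.56% of all genes. Leaving out 1 array gave 4 to 10 genes at 16 weeks. There were 4 (8%, against 4.54% of all genes) without control rat 1 and 5 (10%, against 5.75%) without control rat 2. Of the 16-week rats, leaving out rat 1 gave 4 (8%, against 5.28%), rat 2 gave 4 (8%, against 6.01%) and rat 4 gave 10 (20%, against 11%). Hmox1 was lost without control rats 1, 2 or 3 or rats 1, 2 or 3 at 16 weeks (adjusted p 0.0513 to 0.096), Mgst3 without control rats 1, 2 or 4 or rats 1 or 2 at 16 weeks (0.056 to 0.127), Gpx7 without control rats 1, 2 or 3, rats 2 or 4 at 8 weeks, rats 1 or 2 at 16 weeks or rat 1 at 24 weeks (0.0525 to 0.137), and Gstm2 without any of 12 arrays (0.0516 to 0.151). At 24 weeks the count of 0 became 9 (18%, against 11.8% of all genes) without centring and 1 with a trended robust prior (Gpx3; 2%, against 0.879%). It was 0 to 3 when 1 array was left out, such as 0 without control rat 1 (against 0.0352% of all genes) and 1 without rat 1 at 16 weeks (2%, against 1.37%). The 24-week group cannot be compared within the higher level. The counts of 0 at 8 weeks and between ACF groups were 0 in each setting that could be fitted. Replicate numbers did not pair the rats: deviations from group means over all genes correlated between -0.32 and 0.24 in 24 same-numbered pairs. With a replicate block 7 genes passed at 16 weeks (14%, against 9.06% of all genes) and 1 at 24 weeks (Gstm2; 2%, against 0.767%).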
